A study of Homo sapiens with 14 samples.

Results

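The human genes for alanine and glycine transfer RNAs (tRNAs) were examined for binding of the progesterone receptor (PR) and of POLR3A, the catalytic large subunit of RNA polymerase III, in breast cancer cells. Members were all nuclear genes of the class tRNA in the RefSeq table of GRCh38.p14 on chromosomes 1 to 22 and X whose symbol begins with TRA- (alanine) or TRG- (glycine). They numbered 62 of 429 nuclear tRNA genes, 32 for alanine and 30 for glycine. The study used chromatin immunoprecipitation with sequencing (ChIP-seq) in T47D, an established ER+PR+ breast cancer line. Cells received ethanol vehicle or progesterone (P4) for 1 h, at a P4 concentration not given in the sources used here. All groups were of this line, with no genetic change named in the labels, grown in medium with fetal bovine serum and insulin. Whether the serum was stripped of hormones is not given either. Each antibody had 3 replicate libraries per treatment and each treatment had 1 pooled input, 14 libraries in all. The 4 deposited peak lists hold 1 list for each antibody and treatment, so no spread between replicates could be set beside any value and no difference between treatments was tested.

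RNA polymerase III makes tRNAs from short genes whose promoter lies inside the transcribed part. The factor TFIIIC binds an A box and a B box within the gene, TFIIIB is placed just upstream, and the polymerase, with POLR3A at its active centre, is recruited to TFIIIB. The symbol of a tRNA gene gives the isotype, the anticodon, a number for the mature sequence and a number for the copy, so that TRG-GCC2-1 and TRG-GCC2-6 are copies with the same mature tRNA. Alanine tRNAs with anticodon AGC carry inosine at the wobble position, and glycine tRNAs with anticodon GCC are a well-known source of tRNA fragments. PR is a ligand-activated transcription factor that binds DNA at hormone response elements.

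Sequences are shown for the members that lie in the promoter window of another gene and carry a POLR3A summit there, because the letters put the bound point beside the internal promoter. None of the 62 members has a promoter entry of its own in the RefSeq table. The windows (250 bases before to 50 after the start of the named gene, 300 bases, GRCh38.p14) run 5′ to 3′ on the strand of that gene, and capitals mark the part inside the tRNA gene. The first is that of LINC01623 (chr6:28863628-28863927, minus strand), which holds all 72 bases of the alanine gene TRA-AGC2-2. The second is that of TIA1 (chr2:70248744-70249043, minus strand), which holds 53 of the 71 bases of the glycine gene TRG-CCC2-1. The third is that of LOC100287175 (chr16:636702-637001, plus strand), which holds all 71 bases of TRG-CCC2-2. The window of DPP9 holds 23 of the 72 bases of TRG-TCC1-1 but no POLR3A summit, and is not shown.
LINC01623: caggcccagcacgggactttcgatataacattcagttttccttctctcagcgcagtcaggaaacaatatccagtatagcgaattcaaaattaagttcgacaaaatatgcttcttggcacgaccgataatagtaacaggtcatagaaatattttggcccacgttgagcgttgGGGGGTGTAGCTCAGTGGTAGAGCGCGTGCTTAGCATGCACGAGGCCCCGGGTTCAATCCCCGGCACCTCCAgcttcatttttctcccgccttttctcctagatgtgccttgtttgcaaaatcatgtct
TIA1: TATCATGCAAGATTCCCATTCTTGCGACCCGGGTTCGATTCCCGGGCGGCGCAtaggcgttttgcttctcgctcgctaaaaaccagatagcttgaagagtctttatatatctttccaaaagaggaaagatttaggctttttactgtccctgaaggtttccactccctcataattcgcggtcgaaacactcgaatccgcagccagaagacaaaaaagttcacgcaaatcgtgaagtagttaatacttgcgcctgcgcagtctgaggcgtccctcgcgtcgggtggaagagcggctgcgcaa
LOC100287175: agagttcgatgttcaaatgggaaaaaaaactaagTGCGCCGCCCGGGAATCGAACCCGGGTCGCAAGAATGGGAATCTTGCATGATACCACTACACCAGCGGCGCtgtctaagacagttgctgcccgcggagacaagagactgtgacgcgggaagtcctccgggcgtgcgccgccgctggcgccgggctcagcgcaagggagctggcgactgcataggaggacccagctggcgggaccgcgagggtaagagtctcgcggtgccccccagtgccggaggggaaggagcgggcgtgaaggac

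The POLR3A summit lay inside the capitals in all 3 windows, which were chosen for holding a summit, under both treatments. Counted from the 5′ end of the window, it was at base 202 under vehicle and 211 under P4 in the LINC01623 window, where the alanine gene spans bases 172 to 243. It was at bases 29 and 32 in the TIA1 window (gene at bases 1 to 53) and at bases 102 and 97 in the LOC100287175 window (gene at bases 35 to 105). The B box, searched on both strands, was found in the gene part of the TIA1 window at bases 32 to 42 and of the LOC100287175 window at bases 46 to 56 on the other strand. Of all 35116 promoter windows in the table, 0.185% hold it. Its core GTTCGA, in 2.30% of all windows, lies within both matches, at bases 33 to 38 and, on the other strand, 50 to 55. It was also found outside the tRNA genes, at bases 94 to 99 of the LINC01623 window and 4 to 9 of the LOC100287175 window. The B box was not found in the LINC01623 window, whose gene part has at bases 222 to 232 a form with any base at the G of that core. This form was searched after the letters had been seen and is present in 0.843% of all windows. A loose A box, in 45.5% of all windows, was at bases 179 to 189 of the LINC01623 window, inside the alanine gene, and at bases 88 to 98 on the other strand of the LOC100287175 window, inside the glycine gene. The TIA1 window has it only outside the part of the tRNA gene that it holds, at bases 227 to 237, 282 to 292 and, on the other strand, 290 to 300. The rest of that gene lies before base 1 of the window and was not searched, so an A box there cannot be told. The 53 bases of TRG-CCC2-1 were identical to those of TRG-CCC2-2 at 53 of 53 positions, which their shared number for the mature sequence already implies. The progesterone response element, in 0.390% of all windows, was found in none of the 3 windows. No PR region reached the TIA1 or LOC100287175 window in either list. A PR region reached the LINC01623 window under P4 alone, with its summit outside the window. The search therefore cannot tell whether the element is present where PR was found at members.

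A member was counted as bound when a region of a list reached the gene body or the 100 bp on either side. The strength of a region is given as the authors' −log10 q, which grows with the evidence for the region, and as their fold enrichment over background. They were used to order regions inside each list, and no change between treatments was read from them. The number of regions on the chromosomes used was 29161 for POLR3A with vehicle and 47904 with P4, and 38933 and 111515 for PR. The files hold no read counts, so depth is unknown.

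POLR3A was at most alanine and glycine tRNA genes, and PR at few. Under vehicle, POLR3A was at 52 of the 62 members (83.9%, 95% Wilson interval over genes 72.8 to 91.0), where 82.3% of all 429 tRNA genes had it. Under P4 it was at 51 members (82.3%, interval 71.0 to 89.8), against 81.8% of all tRNA genes. PR was at 5 members under vehicle (8.06%, interval 3.49 to 17.5), against 12.8% of all tRNA genes. Under P4 it was at 11 members (17.7%, interval 10.2 to 29.0), against 26.1% of all tRNA genes. In both POLR3A lists were 50 members (80.6%), against 79.0% of all tRNA genes. The shares of all tRNA genes in the 4 lists lie within the members' intervals, which cover counting error only.

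**Figure D1:**
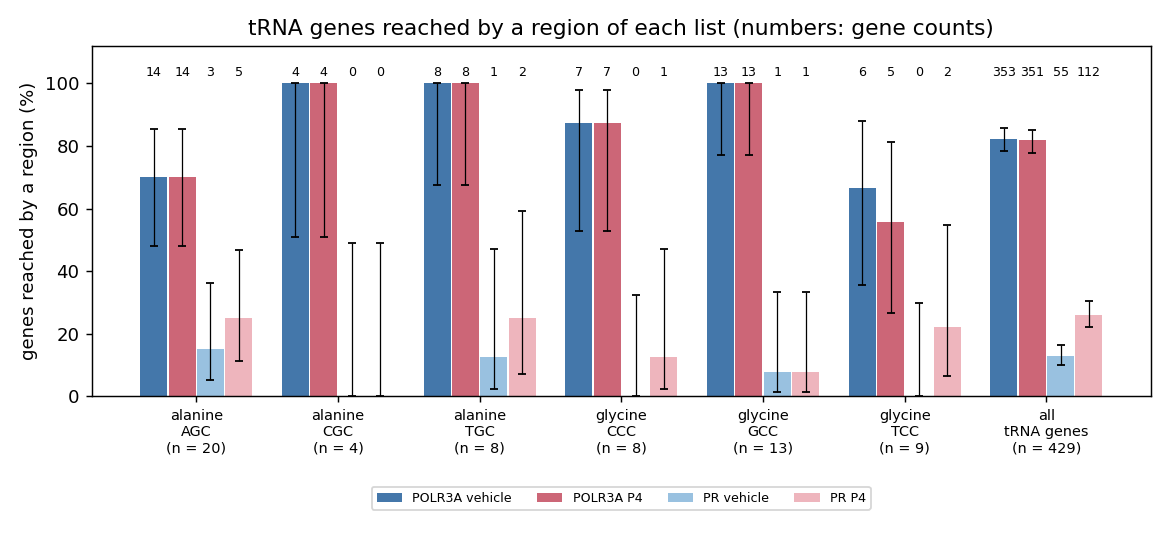
Bars give the percentage of genes reached by a region of each of the 4 lists, by isotype and anticodon and for all 429 tRNA genes, with 95% Wilson intervals as error bars and gene counts above. POLR3A reached every member with alanine anticodons CGC and TGC and glycine anticodon GCC, 14 of 20 with alanine AGC under each treatment, and 6 and 5 of 9 with glycine TCC. All bound TCC genes but TRG-TCC1-1 under vehicle and TRG-TCC2-1 under P4 were reached by regions with the summit nearer to another tRNA gene.

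Among alanine genes, POLR3A was at 26 of 32 under each treatment (81.3%, interval 64.7 to 91.1). All 4 genes with anticodon CGC and all 8 with TGC had it in both lists. Of the 20 genes with AGC, 14 had it under vehicle and 14 under P4, so every alanine gene without POLR3A was an AGC gene. The median −log10 q of bound alanine genes was 381.4 under vehicle and 320.5 under P4, and for all bound tRNA genes it was 353.9 and 354.2. Of the bound alanine genes, 22 under vehicle and 21 under P4 were reached by a region among the 500 strongest of the list, beside 284 of 353 and 280 of 351 bound tRNA genes in all.

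The 2 members with the highest vehicle values of each alanine anticodon were all above 540 in −log10 q. TRA-AGC8-1 (chromosome 2, 27051214 to 27051286, in the span of AGBL5, its region shared with the tyrosine gene TRY-GTA2-1) had 586.6 under vehicle and 554.3 under P4, with fold enrichments of 93.8 and 79.4. TRA-AGC2-2 (chromosome 6, 28863685 to 28863756) had 550.6 and 520.5. For CGC, TRA-CGC1-1 (chromosome 6, 26553503 to 26553574) had 564.9 and 548.5, in a region shared with the isoleucine gene TRI-AAT5-1, to which the summit was nearer. TRA-CGC3-1 (chromosome 2, 156400769 to 156400840, in the span of GPD2) had 541.2 and 528.3 through a region shared with the glycine gene TRG-GCC2-2, whose midpoint was 13 bp from the summit under vehicle and 7 bp under P4. For TGC, TRA-TGC3-1 (chromosome 5, 181206868 to 181206939, its region shared with the lysine gene TRK-CTT2-2) had 588.6 and 554.3. TRA-TGC4-1 (chromosome 12, 124939966 to 124940037) had 564.6 and 532.8, with the summit nearer to the aspartate gene TRD-GTC2-10.

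The AGC genes divided by gene length, a grouping made after the values had been seen. Length and place cannot be told apart here, because all 8 genes of 72 bp lie between 27902908 and 28863756 on chromosome 6. None of the 12 genes of 73 bp lies there. All 8 AGC genes of 72 bp had POLR3A under both treatments, with −log10 q from 20.5 to 550.6 under vehicle. Of the 12 AGC genes of 73 bp, 6 had it under each treatment, and 5 of these 6 were bound under both (TRA-AGC8-1, TRA-AGC8-2, TRA-AGC10-1, TRA-AGC11-1 and TRA-AGC15-1). Their vehicle values were 586.6, 436.6, 10.6, 473.3 and 120.1, and the lowest of them, at TRA-AGC10-1, was at percentile 91.8 of the vehicle list. The 436.6 at TRA-AGC8-2 came from a region whose summit was nearest to the tyrosine gene TRY-GTA5-1. TRA-AGC9-1 (chromosome 6, 26730534 to 26730606) had POLR3A in the vehicle list alone, at 5.22, and TRA-AGC24-1 (chromosome 6, 57815974 to 57816046) under P4 alone with 4.10. Both summits lay close to the gene's midpoint, at 7 and 18 bp. With TRG-TCC2-3, described with the glycine genes, 2 members were bound under vehicle alone and 1 under P4 alone, or 3.23% and 1.61%, where all tRNA genes gave 3.26% and 2.80%.

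The 5 alanine genes with POLR3A under neither treatment were TRA-AGC12-1, TRA-AGC12-3, TRA-AGC13-2, TRA-AGC14-1 and TRA-AGC14-2, all on chromosome 6. With 4 glycine genes they made 9 members, 14.5%, against 14.9% of all tRNA genes. The nearest POLR3A summit under vehicle was 3109 bp from TRA-AGC14-1, 4791 bp from TRA-AGC12-1 and 9153 bp from TRA-AGC14-2. For TRA-AGC13-2 and TRA-AGC12-3 it was 33709 and 51760 bp away. Both copies of AGC14 and both listed copies of AGC12 were without POLR3A, while both copies of AGC2, AGC8 and TGC3 had it at 436.6 or more in the vehicle list. The region at TRA-AGC8-2, with 436.6, had its summit nearest to the tyrosine gene TRY-GTA5-1.

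Alanine genes were concentrated on chromosome 6, which carried 25 of the 32, and their POLR3A calls differed between blocks of that chromosome. In the block from 27902908 to 28863756, which holds 15 alanine genes and the glycine gene TRG-GCC2-3, all 16 members had POLR3A under both treatments, with −log10 q from 20.5 to 550.6 under vehicle and a median of 249.2. Of the 18 other tRNA genes in this block, 14 had it under each treatment. The block from 26553503 to 26828299 holds 7 alanine genes, of which 4 had POLR3A under vehicle and 3 under P4, beside 17 and 15 of its 20 other tRNA genes. In the block from 57815974 to 57856473, none of 3 alanine genes and none of 2 other tRNA genes had POLR3A under vehicle, and only TRA-AGC24-1 had it under P4. TRA-AGC5-1 and TRA-AGC7-1 were the weakest bound members of the well-bound block, with 33.3 and 20.5 under vehicle and 31.6 and 15.3 under P4. No test was made between blocks, since neighbouring genes are not independent. The AGC genes of the well-bound block are the 8 of 72 bp, so block and length cannot be told apart for AGC genes.

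**Figure D2:**
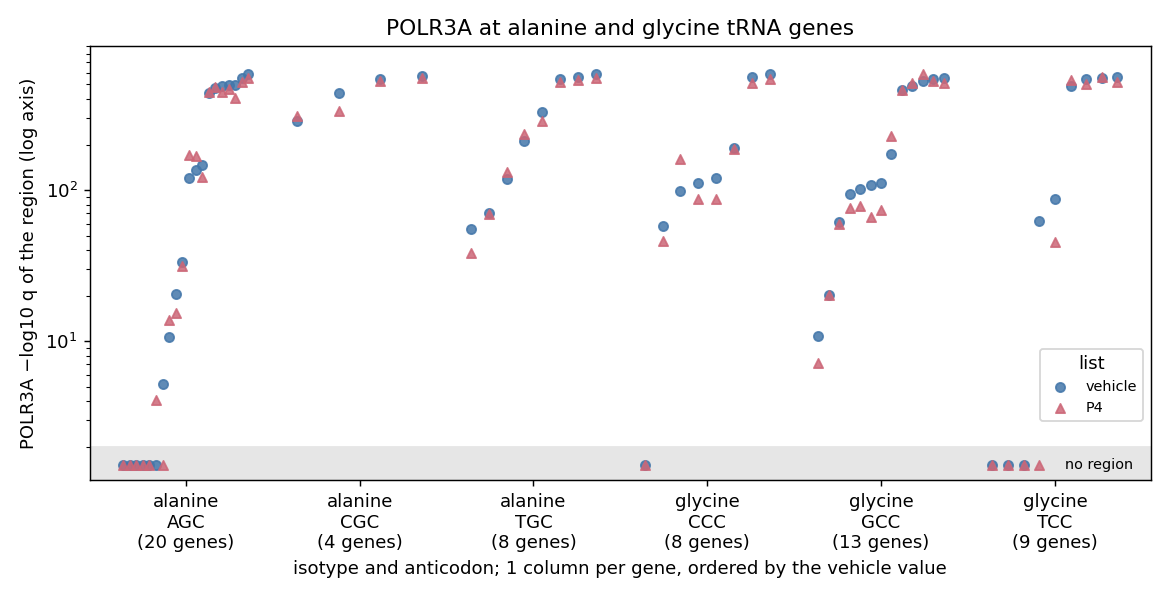
Each column is 1 gene, with the −log10 q of its POLR3A region in the vehicle list (circles) and the P4 list (triangles) on a log axis, and genes without a region lie in the grey band. Within AGC, GCC, CCC and TCC the genes spread widely, from 4.10 to 588.6 or no region. The 8 TGC genes also spread, from 38.3 to 588.6, while the 4 CGC genes stood at 287.9 or more in both lists. For TRA-CGC1-1 and TRA-CGC3-1 the region's summit was nearer to another tRNA gene.

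Among glycine genes, POLR3A was at 26 of 30 under vehicle (86.7%, interval 70.3 to 94.7) and 25 under P4 (83.3%, interval 66.4 to 92.7). All 13 GCC genes had it under both treatments, as did 7 of 8 CCC genes. Of the 9 TCC genes, 6 had it under vehicle and 5 under P4. Only TRG-TCC1-1 under vehicle and only TRG-TCC2-1 under P4 was itself the tRNA gene nearest to the summit. The other bound TCC genes were counted through regions whose summit was nearer to another tRNA gene. The median −log10 q of bound glycine genes was 147.7 under vehicle and 186.9 under P4. No test of glycine against alanine was made, and 18 of the 30 glycine genes lie on chromosome 1, 12 of them in 1 block.

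The glycine members with the highest vehicle values of each anticodon were above 540 as well. TRG-CCC2-1 (chromosome 2, 70248991 to 70249061, with its midpoint 233 bp from an end of TIA1) had 588.6 under vehicle and 544.0 under P4, with fold enrichments of 94.1 and 73.5. TRG-CCC2-2 (chromosome 16, 636736 to 636806, 466 bp from an end of METTL26) had 558.0 and 509.2. These are the genes whose letters are printed above. TRG-GCC2-1 (chromosome 1, 161523847 to 161523917, in the span of FCGR2A) had 552.9 and 510.0, and TRG-GCC2-2 (chromosome 2, 156401147 to 156401217) had 541.2 and 528.3. TRG-TCC2-1 (chromosome 1, 146037061 to 146037132) had 556.5 and 517.0, with the summit nearer to the histidine gene TRH-GTG1-1 under vehicle and 34.5 bp from its own midpoint under P4. TRG-TCC1-1 (chromosome 19, 4724070 to 4724141, 263.5 bp from an end of DPP9) had 552.3 and 558.3, in a region that also holds the valine gene TRV-CAC3-1, to which the P4 summit was nearer.

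Copies with the same mature sequence differed widely in POLR3A for GCC1 and GCC2, and less for the other sets of copies except TCC2. The values counted for TCC2 differed widely too, but came from regions whose summit was nearer to another tRNA gene. This held at every bound TCC2 copy under vehicle and at all but TRG-TCC2-1 under P4. The 6 copies of GCC2 had vehicle values of 552.9, 541.2, 525.2, 174.5, 20.2 and 489.0 for copies 1 to 6 and P4 values of 510.0, 528.3, 583.7, 229.0, 20.2 and 513.2. Copies 4 and 5, which lie with TRG-GCC3-1 (61.4 and 59.4) in the span of VAC14 on chromosome 16, were the low ones in both lists. The fold enrichment of copy 5 was 8.56 and 8.09, and that of copy 1 was 72.5 and 56.1. The 2 copies of CCC2 stood at 558.0 or more under vehicle, and those of CCC1, on chromosome 1, at 112.1 and 58.1. The other bound CCC genes, TRG-CCC4-1, TRG-CCC5-1 and TRG-CCC6-1, all on chromosome 1, stood between 97.9 and 190.05 under vehicle. The lowest bound glycine gene was TRG-GCC4-1 (chromosome 1, 161480566 to 161480636), at 10.9 under vehicle and 7.14 under P4. TRG-CCC3-1 (chromosome 17, 19860862 to 19860932, in the span of ULK2) was the glycine gene outside chromosome 1 with no POLR3A under either treatment, and its nearest vehicle summit was 6178 bp away. How reads that match several copies were placed is not given in the sources used here, so values of near-identical copies are uncertain and the part of read placement in these differences was not tested.

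A repeated array on chromosome 1 held 9 of the glycine genes, and its GCC and TCC genes differed in the lists. The unit of the array carries genes for glycine GCC, glutamate CTC, glycine TCC, aspartate GTC and leucine CAG, and starts of consecutive copies were 7360 to 7431 bp apart for GCC1 and 7381 to 7410 bp for TCC2. All 4 GCC1 genes in it had POLR3A, at 101.2, 94.3, 107.9 and 111.3 under vehicle and 78.8, 75.7, 66.3 and 73.7 under P4, close to each other within each list. TRG-GCC1-5, the copy of the same mature sequence on chromosome 21 (17454789 to 17454859), stood at 461.8 and 459.9. Fold enrichment in the array was 9.86 to 12.3 under vehicle, against 77.6 for TRG-GCC1-5. None of the TCC genes of the array (TRG-TCC4-1 and TRG-TCC2-2 to TRG-TCC2-5) was the tRNA gene nearest to a POLR3A summit. TRG-TCC2-3 under vehicle, and TRG-TCC2-5 under both treatments, counted as bound because the region of the neighbouring glutamate gene, TRE-CTC1-3 or TRE-CTC1-5, came within 100 bp of them. TRG-TCC2-2 and TRG-TCC2-4 lay 338.5 and 352.5 bp from the summit at their glutamate neighbours under vehicle and were not reached. All 4 glutamate CTC1 genes had a summit of their own in both lists, at 37.0 to 87.7 under vehicle, whereas none of the 5 leucine CAG1 genes was reached. Of the 5 aspartate GTC2 genes, 3 had a summit of their own under vehicle, at 5.14 to 6.64, and 0 were reached under P4. The placement of reads that match several units of the array is not given in the sources used here. Values in the array, and genes in it without a region, are therefore uncertain, and the part of read placement was not tested. Outside the array, TRG-TCC2-6 (chromosome 1, 161531113 to 161531184) was in a region of 547.2 and 501.0 whose summit was nearer to TRL-CAG1-6.

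**Figure D3:**
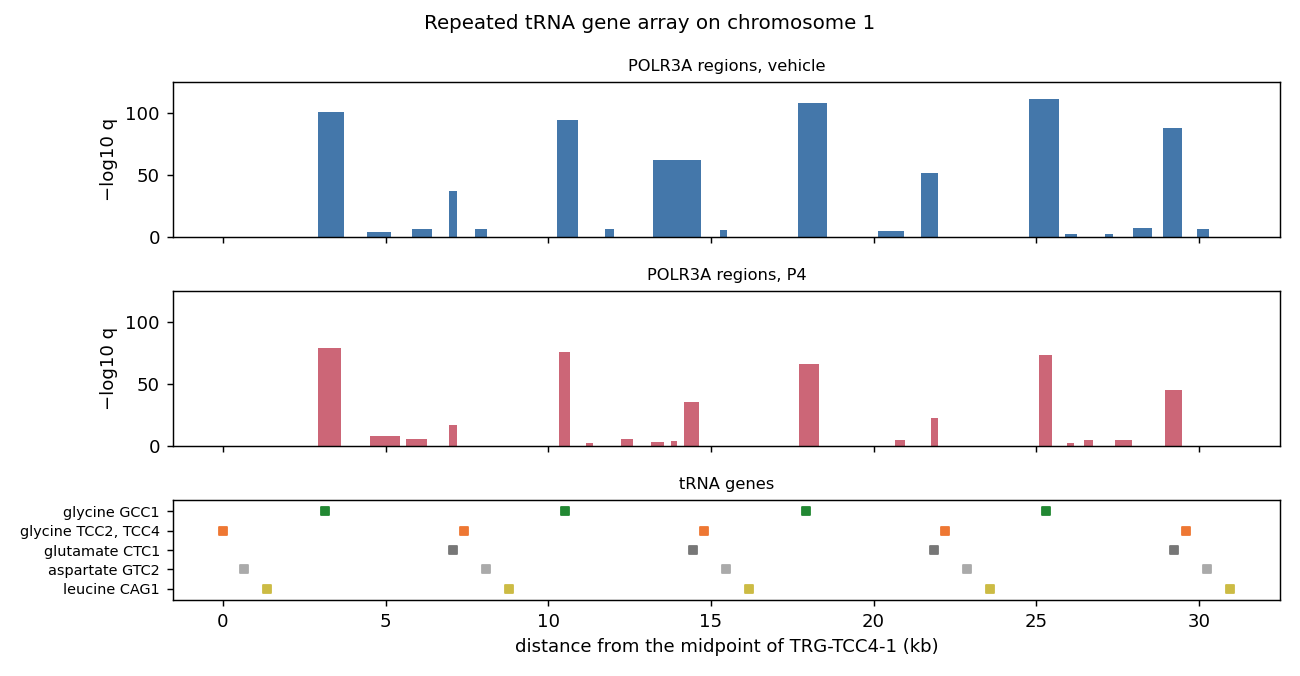
Bars show the POLR3A regions of the chromosome 1 array by distance from the midpoint of TRG-TCC4-1 in kb, with their −log10 q as height, under vehicle (top) and P4 (middle), and squares below mark the tRNA genes. The 4 tall bars of 94.3 to 111.3 under vehicle stand at the GCC1 genes, the next tallest beside the glutamate CTC1 genes, and no summit is nearest to a TCC gene.

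Most POLR3A summits lay on the members themselves. Among bound members, the median distance from the summit to the gene's midpoint was 15.25 bp under vehicle and 18 bp under P4. It was within 100 bp for 43 of 52 and 43 of 51 members. In the vehicle list, 9 members were bound through a region whose summit was nearer to another tRNA gene, 5 glycine genes (4 of them TCC2 copies) and 4 alanine genes, and in the P4 list 8. In each list 12 members lay in a region that reaches the bodies of at least 2 tRNA genes, TRG-GCC2-3 with the tRNA gene TRX-CAT1-7 among them. Regions at members were 257 to 2623 bp wide under vehicle and 191 to 2886 bp under P4, with medians of 646.5 and 575 bp against 280 and 276 bp over the whole lists. Across the 50 members with POLR3A in both lists, the rank order was alike (Spearman's rho 0.954, a description over genes that share libraries, cluster on chromosomes and in 1 case share a region).

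PR was at 7 alanine and 4 glycine genes in at least 1 list (17.7% of members, against 28.0% of all tRNA genes), and all 11 had POLR3A in both lists. No member had PR without POLR3A under P4, against 0.233% of all tRNA genes. Under vehicle these were 4 alanine genes, TRA-AGC2-1, TRA-AGC8-1, TRA-AGC8-2 and TRA-TGC4-1, and the glycine gene TRG-GCC2-1. All 5 had PR under P4 too and so stood in all 4 lists, 8.06% of members against 11.0% of all tRNA genes. PR under P4 alone was at 6 members, TRA-AGC2-2, TRA-AGC11-1, TRA-TGC3-2, TRG-CCC5-1, TRG-TCC2-1 and TRG-TCC3-1, or 9.68% against 15.2% of all tRNA genes. PR under vehicle alone was at 0 members, against 1.86%. A further 39 members, 62.9%, had POLR3A in both lists without PR in either, against 51.3% of all tRNA genes. With both PR lists held to the same length, the P4 list reached 3 alanine genes and 1 glycine gene, against 4 and 1 in the vehicle list, so the P4 counts were not higher at equal length.

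Strong PR regions stood at 2 members. At TRA-AGC8-2 (chromosome 8, 66114189 to 66114261, in the span of TRIM55 beside the tyrosine genes TRY-GTA5-1 and TRY-GTA5-2), the PR region had 340.9 with vehicle and 390.2 with P4, with fold enrichments of 39.7 and 38.2. Its summit was 468 and 462 bp from the gene's midpoint. The POLR3A region there had 436.6 and 445.1, and its summit, nearest to TRY-GTA5-1, was 828 and 798 bp from the midpoint, 1296 and 1260 bp from the PR summit. At TRA-TGC4-1, PR had 115.2 under vehicle and 272.7 under P4, with fold enrichments of 22.8 and 43.4 and summits 166.5 and 149.5 bp from the midpoint, nearer to TRD-GTC2-10 under vehicle. The PR region there was 961 bp wide under vehicle and 2450 bp under P4. Both genes had another tRNA gene within 1 kb.

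The other PR regions had lower values. At the remaining glycine and alanine genes with PR under vehicle, TRG-GCC2-1, TRA-AGC8-1 and TRA-AGC2-1, the values were 3.60, 3.59 and 1.77 under vehicle and 6.71, 4.15 and 3.20 under P4, where the list threshold is near 1.31. Among the genes with PR under P4 alone, TRG-TCC2-1 had 26.6 with a fold enrichment of 6.86, TRA-TGC3-2 (chromosome 12, 124921755 to 124921826) had 9.15, and TRA-AGC11-1 (chromosome 6, 26571864 to 26571936) had 7.35. TRG-TCC3-1 (chromosome 17, 8221548 to 8221619), TRA-AGC2-2 and TRG-CCC5-1 (chromosome 1, 16727285 to 16727355) had 3.96, 3.88 and 2.54. Under P4, 8 of the 11 values were below 10 and the median lay at percentile 62.7 of the PR list, while the median POLR3A region at members lay at percentile 99.6 of its own list.

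**Figure D4:**
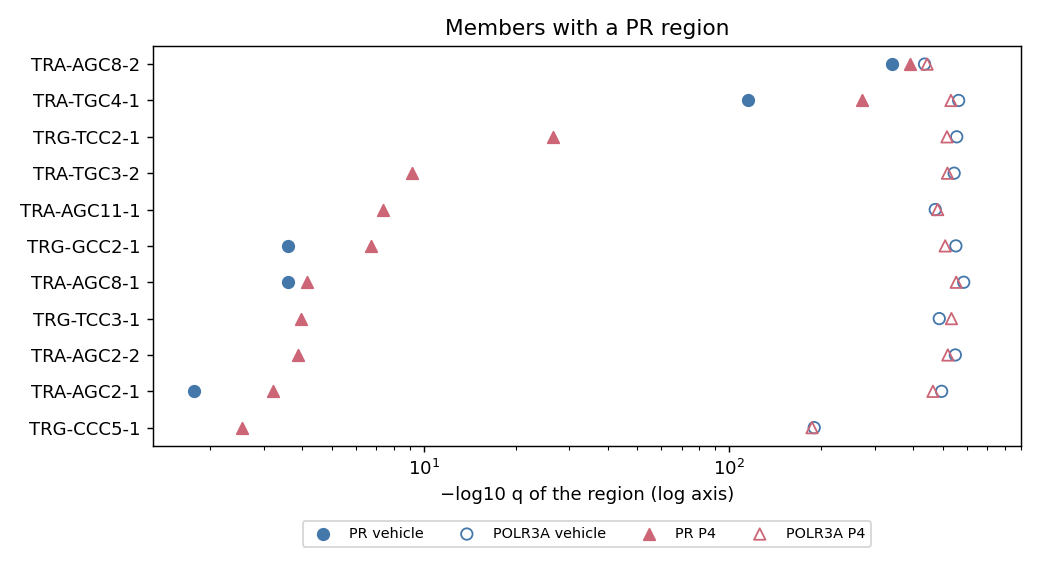
For the 11 members with a PR region, filled symbols give the PR −log10 q and open symbols the POLR3A −log10 q on a log axis, with circles for vehicle and triangles for P4. PR values reach over 100 only at TRA-AGC8-2 and TRA-TGC4-1, while POLR3A values are 436.6 or more at every gene but TRG-CCC5-1.

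Members with PR were reached by POLR3A regions of high value. Under P4 the 11 had a median POLR3A −log10 q of 517.0 and a lowest value of 186.9 (TRG-CCC5-1), and the 40 members with POLR3A and no PR had a median of 165.2 and a range of 4.10 to 583.7. Under vehicle the 5 members with PR had 436.6 to 586.6, and the 47 without it 5.22 to 588.6. The ranges overlapped under both treatments, and several of the highest POLR3A values, such as those of TRG-CCC2-1 and TRA-TGC3-1, stood at genes without PR in either list. Some of these values came from regions whose POLR3A summit was nearer to another tRNA gene. Among members with PR these were TRA-AGC8-2 and TRA-TGC4-1 in both lists and TRG-TCC3-1 under P4. Members without PR, such as TRA-CGC1-1, were among them too. No test was made, since the genes are not independent.

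PR summits at members mostly lay beyond 100 bp from the gene's midpoint, as they did at tRNA genes in general. Of the PR summits at members, 1 of 5 under vehicle lay within 100 bp of the midpoint, at TRA-AGC8-1 (50 bp), and 0 of 11 under P4. Over all 429 tRNA genes, a PR summit lay within 100 bp at 17 under vehicle and 29 under P4 (3.96% and 6.76%), and over the 62 members at 1 and 0. For the members reached by a PR region, 5 under vehicle and 11 under P4, the median distance from summit to midpoint was 166.5 and 318.5 bp. All 5 summits under vehicle and 9 of 11 under P4 fell inside the POLR3A region of the same treatment, and the exceptions were TRA-AGC11-1 and TRA-AGC2-2. At TRA-AGC8-1 the P4 summit, 666 bp from its midpoint, was nearer to the tyrosine gene TRY-GTA2-1. Over all 62 members, a PR summit lay within 1000 bp of the midpoint at 12 under vehicle and 22 under P4 (19.4% and 35.5%, against 22.6% and 39.2% of all tRNA genes). Within 10000 bp under P4 it did so at 29 of 30 glycine genes and 16 of 32 alanine genes, where all tRNA genes gave 72.5%, and neighbouring genes can share a summit.

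**Figure D5:**
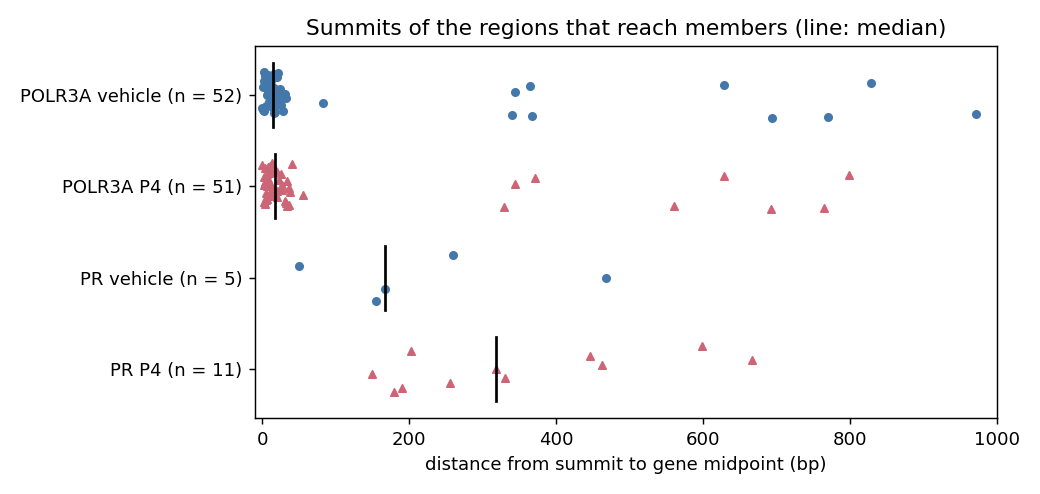
Points give the distance in bp from the summit of the strongest region that reaches a member to the gene's midpoint, for each list, and vertical lines give medians. POLR3A points have medians of 15.25 and 18 bp and reach 971.5 and 798 bp, and PR points have medians of 166.5 and 318.5 bp and reach 468 and 666 bp.

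Members close to protein-coding genes were well bound. The 9 members whose midpoint was within 1 kb of an end of a protein-coding gene (3 alanine and 6 glycine genes) all had POLR3A under both treatments, at 436.6 or more under vehicle and 445.1 or more under P4. So did nearly all tRNA genes so placed, 53 of 54 in each list (98.1%). Of the 53 members farther away, 43 and 42 had it (81.1% and 79.2%), against 80.0% and 79.5% of the 375 tRNA genes that far. PR was at 3 of the 9 in each list, and among all 54 tRNA genes so placed it was at 17 under vehicle and 30 under P4 (31.5% and 55.6%). Among the 53 members farther away PR was at 2 and 8 (3.77% and 15.1%), against 10.1% and 21.9% of all tRNA genes that far.

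Genes for the enzymes that act on these tRNAs were read from 1 kb before to 1 kb after the gene. The list held the alanyl-tRNA synthetases AARS1 (cytosolic) and AARS2 (mitochondrial), the glycyl-tRNA synthetase GARS1, the editing enzyme AARSD1, and ADAT2 and ADAT3, the subunits of the deaminase that makes wobble inosine. POLR3A was at 6 of 6 under vehicle and 5 of 6 under P4, against 44.2% and 49.1% of all protein-coding genes, and PR at 3 and 5, against 44.7% and 70.8%. POLR3A values were low beside the median of 353.9 at bound tRNA genes, from 2.29 at ADAT3 to 8.05 at ADAT2 under vehicle. The median of all regions in the vehicle list was 3.53. PR values under vehicle were 1.61 at AARS1, 10.9 at GARS1 and 17.0 at ADAT3. Under P4 they were 29.8 at AARS1, 10.4 at AARS2, 37.5 at GARS1, 8.88 at AARSD1 and 117.2 at ADAT3, and ADAT2 had no PR region in either list. The strongest PR summit at GARS1 was inside the gene, 16490 and 17647 bp from its nearer end. ADAT3 shares its span with SCAMP4, so its regions cannot be given to either gene.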

How the data were processed

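ChIP-seq peak lists for PR and POLR3A in T47D cells under vehicle or P4 were used as deposited. The submitters' processing notes name cutadapt, Bowtie2, MACS2 and hg38, without versions or settings. Whether replicates were pooled and which control was used are not given in the sources used here. Per the narrowPeak layout, the deposited columns hold an integer score, a fold enrichment (a ratio), −log10 p, −log10 q and the summit. The score and −log10 p were not used. The lists give no depth, and Wilson intervals cover counting error over genes only.

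Genes came from the RefSeq table of GRCh38.p14. On each chromosome, genes were kept up to the row where start positions fell back, where alternate sequences begin, which kept 58419 genes and left out 679. The table gives no exons or strands for tRNA genes. Overlap was counted in Python 3.11.15 with pandas 2.3.3, and counts of tRNA genes equalled those of bedtools 2.31.1 in 4 of 4 lists. Tested on simulated data, 200 of 200 planted genes were recovered. The strongest region reaching a gene gave its values.

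Named are the 2 members of each anticodon with the highest vehicle POLR3A −log10 q, all members with PR, with POLR3A under a single treatment or neither, those sharing a region with a neighbour, and the 6 enzyme genes. Other members were named after their values were seen, to complete a block, a set of copies or a length class, or as the lowest bound. The members, lists and rules were chosen with earlier results of these data known. Other settings tried were a limit on −log10 q of 5 or of 10, the gene body alone, a 500 bp window, the summit in the window, both lists of an antibody at equal length, loci in place of genes, rank by fold, and, added after seeing the data, assignment of a region to the tRNA gene nearest its summit. No test between groups was made.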

Additional observations from a re-analysis of the deposited data

How the results depend on the processing

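No paired analysis was possible because there is only 1 list for each group of 3 replicates, and leaving out a replicate was not possible for the same reason. All 32 alternative counts for POLR3A stayed within 1.5 times of those reported, and 13 of 32 for PR. These counts were made by isotype and not by anticodon. From 4 alanine genes with PR under vehicle, the count was 2 at a −log10 q of at least 5 and at least 10, 8 with a 500 bp window and 1 with the summit in the window. From 7 under P4, these were 4 and 2 by −log10 q, 0 with the summit in the window and 3 with lists of equal length. From 1 glycine gene with PR under vehicle, the count was 0 at both −log10 q limits, with the gene body alone and with the summit in the window, and 2 with a 500 bp window. From 4 under P4, it was 2 and 1 by −log10 q, 2 with the gene body alone, 8 with a 500 bp window, 0 with the summit in the window and 1 with lists of equal length. The cause of these differences was not tested.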

Other observations

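Genes close to the members but outside the rule were read in the same way. The table also holds 5 alanine AGC genes under the symbol TRNAA-AGC on chromosome 6, and POLR3A reached 5 of them under vehicle and 3 under P4, PR 1 and 0. Of 6 pseudogenes with TRA- or TRG- symbols, POLR3A reached 0 in either list, and PR reached 0 under vehicle and 1 under P4. That one was TRG-CCC7-1 on chromosome 2 (11551701 to 11551772), with a −log10 q of 2.56 and a summit 583.5 bp from its midpoint. It was named after its values were seen. TRA-CGC5-1, listed with alternate sequences, was left out.

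Exact ties occurred among strong POLR3A regions. The 100 strongest regions held 92 distinct −log10 q values under vehicle and 87 under P4. Of 23 and 22 regions at members with at least 400, 5 and 7 had the exact value of another region of the list. TRG-CCC2-1 and TRA-TGC3-1, on different chromosomes, both had 588.6 with a fold enrichment of 94.1 under vehicle, and TRA-AGC8-1 and TRA-TGC3-1 both had 554.3 with 79.4 under P4. The order of members within the top of a list therefore cannot be read as a difference in binding.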
